A study of Rattus norvegicus with 2 samples.

Results

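The genes described here are 8 genes of lipoprotein assembly and cholesterol efflux: Apoe, Apoc1, Pltp, Abca1, Abcg1, Nr1h3, Soat1 and Plin2. They were chosen by symbol in the gene table of the study, which lists 32623 genes, and 7 of the 8 were found there by exact match. The counts of Apoc1 were not analysed here. The 7 genes are Apoe (ENSRNOG00000018454), Pltp (ENSRNOG00000016488), Abca1 (ENSRNOG00000018126), Abcg1 (ENSRNOG00000001158), Nr1h3 (ENSRNOG00000013172), Soat1 (ENSRNOG00000004111) and Plin2 (ENSRNOG00000007060).

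The cells were rat hippocampal microglia isolated by flow cytometry from male embryos on gestational day 20. The dexamethasone library is from embryos with prenatal exposure to this synthetic glucocorticoid, and the control library from unexposed embryos. Each library pooled 7 male embryos, and each is the only sample of its group, so treatment, pool and library cannot be told apart and no difference below was tested. Strain, dose, exposure times and the markers of the sort are not given in the labels.

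Microglia take up lipid from dying cells and debris and have to dispose of the cholesterol it carries. Abca1 and Abcg1 pass cholesterol across the cell membrane to lipoprotein particles built on apolipoprotein E, and Pltp moves phospholipid between such particles. The liver X receptors, Nr1h3 and its relative Nr1h2, are nuclear receptors that sense oxidised sterols and switch on genes of this export route, while Soat1 esterifies cholesterol for storage and Plin2 coats the droplets that hold the esters.

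The Abca1 promoter is shown because Abca1 is the textbook target of the liver X receptor in this group. The receptor binds, with its partner RXR, to a direct repeat with 4 spacer bases, spelled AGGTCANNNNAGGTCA. The stretch below holds the 250 bases before the Abca1 start site in the RefSeq annotation of GRCr8, chr5:72596474-72596723 on the minus strand, a later assembly than the Rnor_6.0 build of the counts. Capitals mark the only match to that repeat, read on the opposite strand, with 3 mismatches among its 12 fixed letters.
Abca1: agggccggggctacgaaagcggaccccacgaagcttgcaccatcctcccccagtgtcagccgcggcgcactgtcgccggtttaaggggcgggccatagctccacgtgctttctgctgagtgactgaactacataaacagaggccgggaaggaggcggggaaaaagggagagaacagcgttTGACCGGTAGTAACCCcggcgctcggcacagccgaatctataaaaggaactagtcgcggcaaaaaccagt
The search covered both strands of windows of 300 bases, 250 before and 50 after each start, and allowed up to 3 mismatches. Matches occurred in 7318 of all 33469 windows, or 21.9%. Of the 11 windows that belonged to 7 of the 8 genes, the Abca1 window was the only one with a match. These 7 genes include Apoc1 and leave out Abcg1, which had no window and was not searched. A repeat with 1 spacer base, AGGTCANAGGTCA, with up to 2 mismatches, was in 3.77% of all windows and in no window of these genes. These matches describe the letters of the windows and nothing more.

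After filtering, 4198 dexamethasone and 8044 control cells remained, with 5 barcodes present in both libraries. Microglia-like cells made up 76.0% of the dexamethasone cells (3192) and 73.9% of the control cells (5946), with medians of 9182 and 7956.5 unique molecular identifiers (UMIs) per cell. Mitochondrial transcripts took 3.11% of their UMIs with dexamethasone and 5.96% in the control. The summed level of the 17 measured microglia markers was 31272 CPM, the UMIs of a gene scaled to the total UMIs of the same cells, in dexamethasone microglia-like cells and 25615 in control ones. Microglia-like clusters were 1 led by homeostatic genes such as Tmem119 (1295 dexamethasone and 2755 control cells), 1 led by Spp1, Gpnmb and Lpl and called Spp1-high (662 and 1243 cells), and 3 led by S phase, G2/M or histone genes. Border-macrophage-like cells (469 and 1074) formed cluster 6, led by Ms4a7, Stab1 and Mrc1, and cluster 8, led by Ccl24, Clec10a and Cd163. The labels did not separate border macrophages from microglia, and the microglia markers summed to 36449 and 30591 CPM in the border-macrophage-like cells. Their 8 homeostatic markers stood lower, at 841 and 1127 CPM in cluster 6 and 217 and 232 CPM in cluster 8, against 1200 and 1366 CPM in microglia-like cells.

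Apoe, which encodes the main lipoprotein scaffold of the brain, was found in 99.9% of microglia-like cells of both libraries. Its level over these cells was 10444 CPM (interval 10409 to 10479) with dexamethasone and 11770 CPM (11741 to 11799) in the control. Intervals here are at the 95% level and cover counting error only, not differences between embryos or preparations. Within the dexamethasone library Apoe stood at 12663 CPM in Spp1-high cells, 12078 in homeostatic cells and between 7755 and 8036 in the 3 cycling clusters. The control library gave 14721 CPM in Spp1-high cells, 12768 in homeostatic cells and between 8399 and 9249 in the cycling clusters. Of these clusters, the cycling ones thus held the lowest Apoe levels in both libraries.

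Border-macrophage-like cells carried Apoe at 13592 CPM with dexamethasone and 13962 in the control, which hid a split between their clusters. Cluster 6 stood at 13789 and 15092 CPM, and cluster 8 at 6919 and 8196 CPM, the dexamethasone value of cluster 8 resting on 13 cells. The log2 ratio of cluster 8 over cluster 6 was -0.99 (interval -1.09 to -0.90) with dexamethasone and -0.88 (-0.91 to -0.85) in the control. Ccl24-led border cells therefore had lower Apoe than Mrc1-led ones in both libraries.

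**Figure D1:**
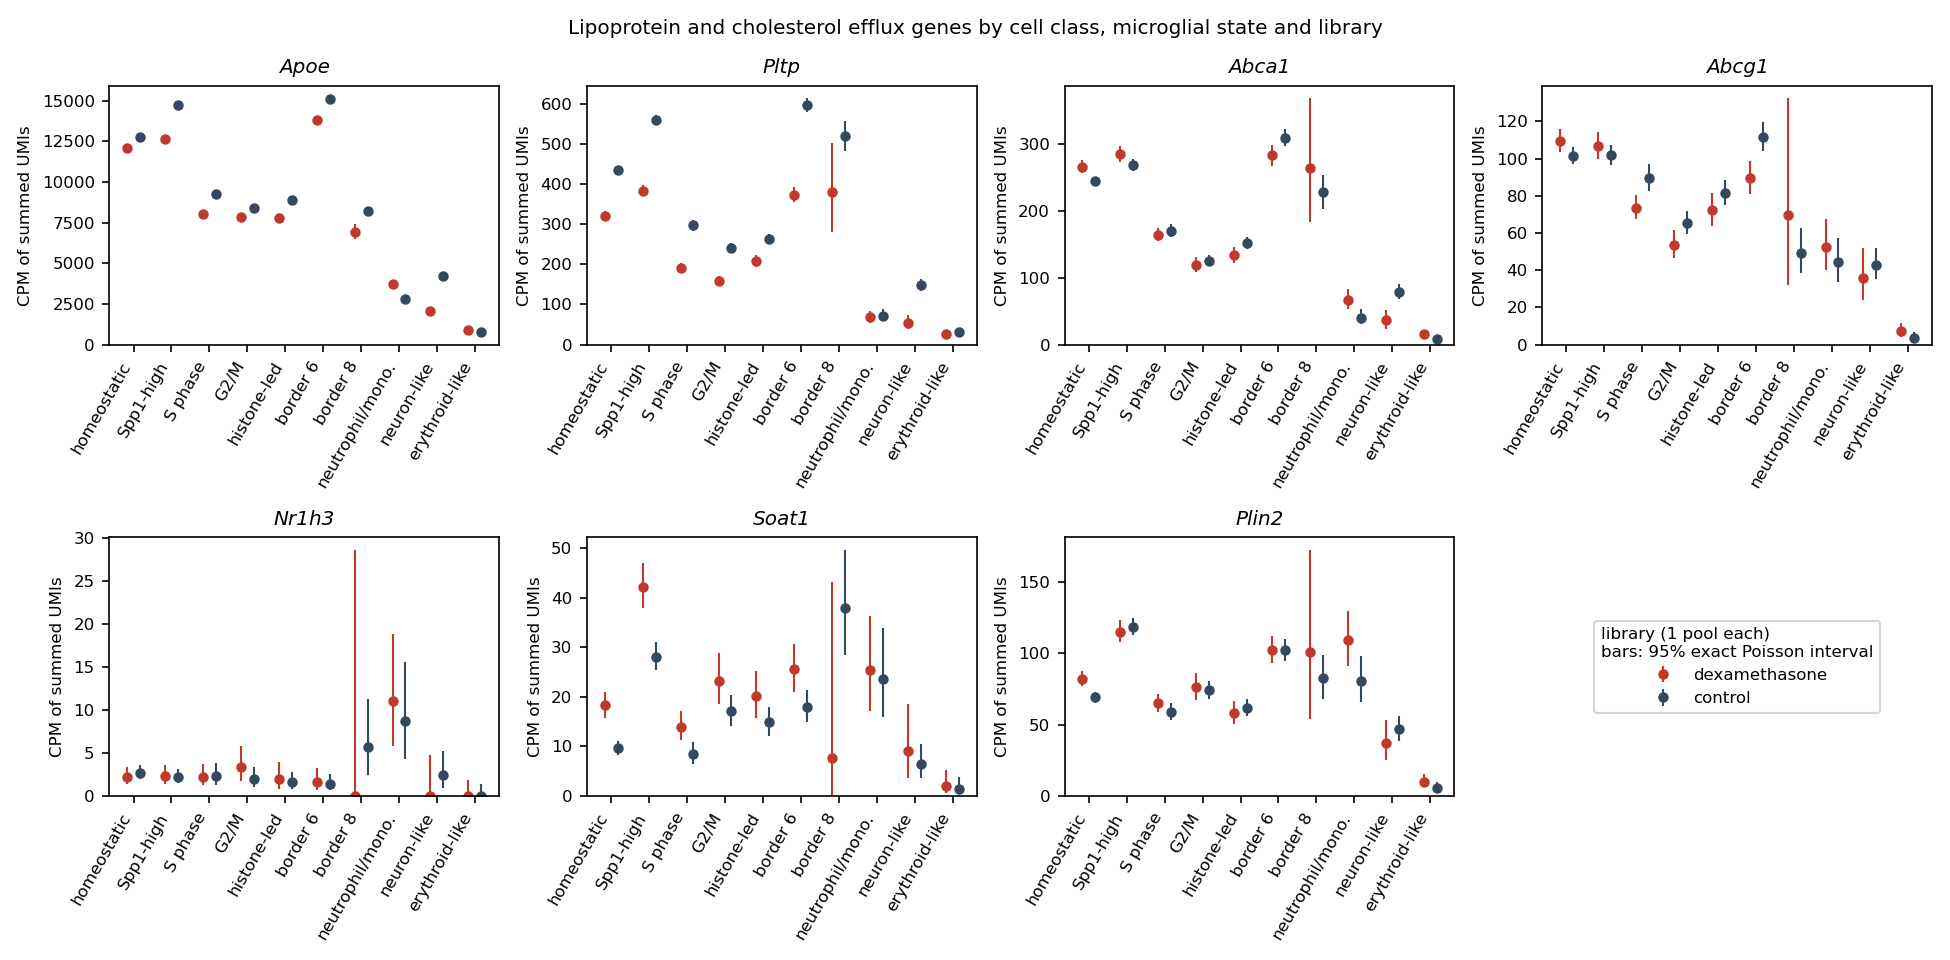
Level of each gene in CPM (linear axis from 0, scaled per gene) by cell class and microglia-like state, with dexamethasone in red and control in blue and bars for the 95% counting interval. Apoe ranges from 879 and 786 CPM in erythroid-like cells to 13789 and 15092 CPM in border cluster 6, and Nr1h3 stays near 2.34 and 2.30 CPM in microglia-like cells.

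Pltp, the phospholipid transfer protein, stood at 279 CPM (273 to 285) in dexamethasone and 402 CPM (397 to 408) in control microglia-like cells. Its dexamethasone levels were 383 CPM in Spp1-high, 321 in homeostatic and 157 to 208 in cycling cells. The control levels were 558 CPM in Spp1-high, 435 in homeostatic and 240.3 to 297 in cycling cells. In border-macrophage-like cells Pltp stood at 373 CPM with dexamethasone and 583 in the control. The control level lay above the dexamethasone level in every microglia-like cluster and in both border clusters, and the intervals of the libraries overlapped only in border cluster 8, at 281 to 502 and 481 to 558 CPM.

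Abca1, the transporter that loads cholesterol and phospholipid onto lipid-poor apolipoproteins, had nearly the same level in the microglia-like cells of the libraries, 219 CPM (214 to 224) and 214 CPM (210.2 to 218). In the dexamethasone library the Spp1-high level of 285 CPM (273 to 297), the border-macrophage-like level of 282 CPM (267 to 298) and the homeostatic level of 266 CPM (256 to 276) had overlapping intervals. In the control library the order was 296 CPM (285 to 308) in border-macrophage-like, 269 (260.1 to 277) in Spp1-high and 244 (237 to 251) in homeostatic cells, and these intervals did not overlap. Cycling cells were lower, at 119 to 164 CPM and 125 to 171 CPM.

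Abcg1, which passes cholesterol to particles that already carry lipid, stood at 91.3 and 92.9 CPM in microglia-like cells. Homeostatic cells had 109.6 CPM (103 to 116) and 102 CPM (97.1 to 106), and Spp1-high cells had 107 CPM (99.9 to 114) and 102 CPM (96.5 to 107). The intervals of these states overlapped in each library, so no order between them was detectable at this depth. Border cluster 8 of the control library was lower, at 49.4 CPM (38.4 to 62.5), against 111 CPM (104 to 119) in cluster 6.

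Nr1h3, the liver X receptor alpha, was at the edge of detection, with 76 and 124 UMIs over all microglia-like cells. That is 2.34 CPM (1.84 to 2.92) with dexamethasone and 2.30 CPM (1.92 to 2.75) in the control, and 2.22% and 2.05% of cells had a UMI. Nr1h2, the other liver X receptor, stood at 45.1 and 42.5 CPM in the same cells. Neutrophil-and-monocyte-like cells had the highest Nr1h3 level of the named classes, with intervals of 5.86 to 18.8 CPM on 13 UMIs and 4.34 to 15.5 CPM on 11 UMIs. These UMIs came from 7 dexamethasone and 8 control cells. The log2 ratio over microglia-like cells was 2.24 (1.26 to 3.09) and 1.91 (0.87 to 2.80), the dexamethasone one resting on fewer than 100 UMIs in all. Erythroid-like cells had an Nr1h3 UMI in 0 of 102 and 0 of 131 cells, which allows a share of up to 2.94% and 2.29% of cells with a UMI and sets no limit on cells expressing the gene.

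Soat1, the enzyme that esterifies cholesterol, rested on 780 and 853 UMIs in microglia-like cells, or 24.0 CPM (22.3 to 25.7) with dexamethasone and 15.9 CPM (14.8 to 17.0) in the control. In the dexamethasone library it stood at 42.2 CPM (37.8 to 47.0) in Spp1-high and 18.3 CPM (15.8 to 21.0) in homeostatic cells. The control library gave 28.0 CPM (25.3 to 31.0) and 9.63 CPM (8.30 to 11.1) in the same states. The Spp1-high cells were thus the highest microglia-like cluster for Soat1 in both libraries, and the dexamethasone level was the higher one in both states. Border cluster 8 of the control library reached 38.0 CPM (28.4 to 49.6) on 53 UMIs, against 18.0 CPM in cluster 6, while the dexamethasone cluster 8 held 1 UMI.

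Plin2, a coat protein of lipid droplets, stood at 83.3 CPM (80.2 to 86.5) and 80.2 CPM (77.9 to 82.7) in microglia-like cells. Spp1-high cells had 115 and 119 CPM, homeostatic cells 82.1 and 69.0 CPM, and the cycling clusters 58.2 to 76.3 and 58.9 to 74.1 CPM. The highest Plin2 levels of any class were in the unnamed cluster, 134 CPM (114 to 156) and 127 CPM (99.3 to 160). That cluster held 216 and 206 cells with medians of 5167 and 1395 UMIs, and mast cell markers summed to 615 and 2987 CPM in it against 0.246 and 0.316 CPM in microglia-like cells. Unlike the efflux genes, Plin2 was as high in neutrophil-and-monocyte-like cells (109 and 80.5 CPM) as in microglia-like cells or higher.

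Between the libraries, Pltp was lower and Soat1 higher in dexamethasone microglia-like cells, and the other 5 genes differed by less than 0.2 on the log2 scale. On the log2 scale Pltp differed by -0.53 (-0.56 to -0.49), dexamethasone over control, and Soat1 by 0.60 (0.45 to 0.74). Apoe gave -0.17 (-0.18 to -0.17), Abca1 0.03 (-0.01 to 0.08), Abcg1 -0.03 (-0.09 to 0.04), Nr1h3 0.02 (-0.41 to 0.44) and Plin2 0.05 (-0.02 to 0.12). Thus 2 of the 7 genes passed a log2 ratio of 0.5 in either direction, beside 6.65% of the 10519 genes with at least 100 UMIs over both libraries (3.6% higher and 3.05% lower). The median of the 7 ratios was 0.02, and that of all 10519 genes was -0.002. The mix of microglia-like clusters differed between libraries. S phase cells were 610 of all 4198 dexamethasone cells (14.5%) and 638 of all 8044 control cells (7.93%). Ratios within each cluster follow, and the part of this mix in the pooled ratios was not tested.

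The Pltp ratio was negative in each microglia-like cluster, at -0.44 in homeostatic, -0.54 in Spp1-high, -0.63 in S phase, -0.61 in G2/M and -0.33 in histone-led cells. The Soat1 ratio was positive in each, at 0.92 (0.63 to 1.22) in homeostatic, 0.59 in Spp1-high, 0.72 in S phase, 0.44 in G2/M and 0.44 (-0.02 to 0.88) in histone-led cells. Abca1 and Abcg1 had no single direction, with ratios of 0.13 and 0.11 in homeostatic cells and -0.19 and -0.17 in histone-led cells. Plin2 was higher with dexamethasone in homeostatic cells, at 0.25 (0.13 to 0.37), and stood at -0.04 (-0.16 to 0.07) in Spp1-high cells. The homeostatic ratios of Plin2, Abca1 and Abcg1 depended on the clustering. At Leiden resolution 1.0, finer clusters 1 (128 dexamethasone and 946 control cells) and 6 (138 and 770) were named homeostatic. Plin2 stood at 65.6 and 68.5 CPM in finer cluster 1 and 59.2 and 69.7 CPM in finer cluster 6. Abca1 was at 264 and 299 CPM, and 309 and 234 CPM. Abcg1 was at 97.7 and 120 CPM, and 107.1 and 105.5 CPM.

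**Figure D2:**
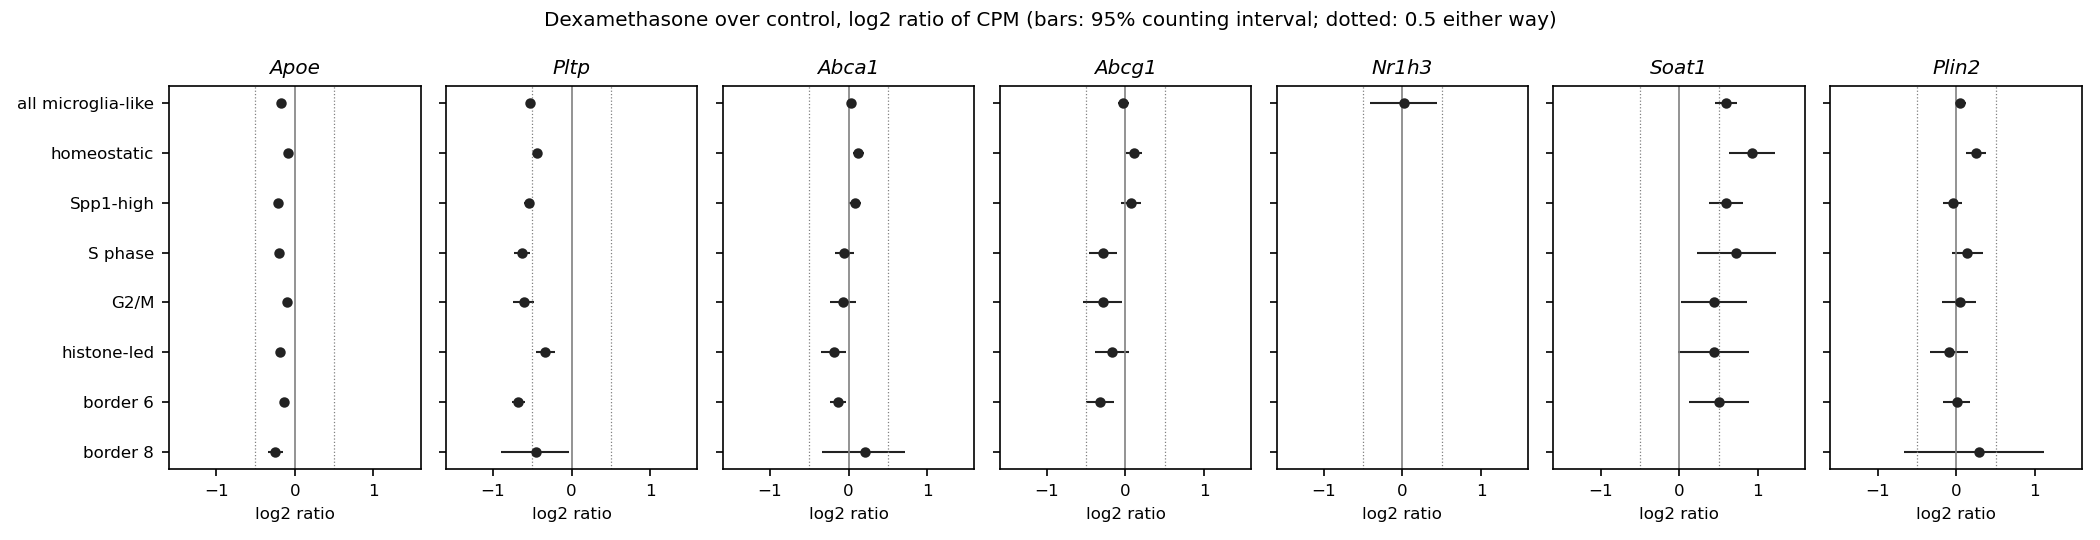
Log2 ratio of dexamethasone over control CPM for each gene, for all microglia-like cells, each microglia-like cluster and both border-macrophage-like clusters, with 95% counting intervals and dotted lines at 0.5 in both directions. Pltp lies left of 0 in every row and Soat1 right of 0 in every row drawn, while Abca1 and Abcg1 cross 0 between rows; ratios with fewer than 100 UMIs are not drawn.

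Border-macrophage-like cells repeated the lower Pltp level of the dexamethasone library, with a log2 ratio of -0.64 (-0.73 to -0.56). There 1 of 6 genes with enough UMIs passed 0.5, beside 8.69% of 7495 genes, and Soat1 stood at 0.24 (-0.12 to 0.58). With cluster 6 alone the ratios were -0.68 (-0.76 to -0.59) for Pltp and 0.51 (0.13 to 0.88) for Soat1. The mix of border clusters differed between libraries, since cluster 8 held 13 of 469 dexamethasone and 149 of 1074 control cells.

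Depth per cell was also compared, because dexamethasone microglia-like cells held more UMIs. Each cell was thinned to 4200 UMIs, which kept 3033 dexamethasone and 5379 control cells and left out 159 and 567. Pltp then had a UMI in 60.6% of dexamethasone and 70.8% of control microglia-like cells (79.3% and 84.1% unthinned). Soat1 had one in 8.37% and 5.97% (18.7% and 11.9% unthinned), and Plin2 in 27.8% and 26.0% (49.1% and 43.1%). The order of the libraries was the same as for the CPM of these 3 genes. For Abca1 the thinned shares were 46.4% and 50.4%, the opposite order to its CPM of 219 and 214, and no order is read from them. Over the thinned cells the log2 ratio of summed counts was -0.49 for Pltp, under the 0.5 threshold. The share of mitochondrial UMIs differed between the libraries as given above, and its part in these ratios was not tested.

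Spp1-high cells stood above homeostatic cells within each library for Soat1, and by less for Plin2, Pltp and Apoe. The Soat1 log2 ratio of Spp1-high over homeostatic cells was 1.21 (0.95 to 1.47) with dexamethasone and 1.54 (1.29 to 1.80) in the control. Plin2 gave 0.49 (0.35 to 0.62) and 0.78 (0.68 to 0.89), Pltp 0.26 (0.18 to 0.33) and 0.36 (0.31 to 0.40), and Apoe 0.07 (0.06 to 0.08) and 0.21 (0.20 to 0.21). The transporters hardly differed, with 0.10 (0.02 to 0.18) and 0.14 (0.08 to 0.20) for Abca1 and -0.03 (-0.16 to 0.09) and 0.00 (-0.10 to 0.10) for Abcg1.

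Of the 6 genes with at least 100 UMIs in both libraries, only Soat1 passed a log2 ratio of 1 in both, beside 2.83% of 8169 genes (1.74% higher in Spp1-high cells). The counting interval lay above 0 in both libraries for 5 of the 6, beside 15.4% of genes, and such intervals narrow with the depth of a gene. The median over the 6 genes was 0.22, and over all tested genes -0.10. After thinning, Soat1 had a UMI in 13.1% of Spp1-high and 7.62% of homeostatic dexamethasone cells, and in 10.7% and 3.95% of control cells (33.7% and 12.8%, and 23.0% and 6.46%, unthinned). The Soat1 log2 ratio of the thinned counts was 0.87 with dexamethasone and 1.57 in the control, so the dexamethasone value was then below 1.

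The small state differences depended on how the states were drawn. When the other lipid genes of the pathway list were also left out of the clustering, the homeostatic cluster shrank to 251 dexamethasone and 1517 control cells. The log2 ratios of Spp1-high over homeostatic cells were then negative for Apoe (-0.26 and -0.27), Pltp (-0.22 and -0.34), Abca1 (-0.44 and -0.61) and Abcg1 (-0.48 and -0.65). Abca1 was also negative with stricter cell filters (-0.22 and -0.13) and at the finer resolution of 1.0 (-0.40 and -0.28), where dexamethasone Apoe stood at -0.03. Without the pathway genes Soat1 (1.32 and 1.11) and Plin2 (0.66 and 0.65) remained above 0. A gate on state markers in thinned cells gave 0.57 and 1.82 for Soat1, so its dexamethasone ratio was below 1 there.

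Cycling cells were lower than homeostatic cells for the efflux genes. In S phase cells the log2 ratios over homeostatic cells were -0.59 and -0.47 for Apoe, -0.74 and -0.55 for Pltp, -0.69 and -0.52 for Abca1 and -0.57 and -0.18 for Abcg1, in the dexamethasone and control library. In G2/M cells they were -0.62 and -0.60 for Apoe, -1.03 and -0.86 for Pltp, -1.16 and -0.96 for Abca1 and -1.03 and -0.63 for Abcg1. Soat1 went the other way in G2/M cells, at 0.34 and 0.83, and Plin2 stood at -0.11 and 0.10. The interval lay below 0 in both libraries for 5 of 6 genes in S phase cells (background 13.8%), 4 of 6 in G2/M cells (17.7%) and 5 of 6 in histone-led cells (18.1%). Median UMIs per cell were higher in cycling than in homeostatic cells, 10177 to 10216 against 7657 and 9104 to 10019 against 6496. The part of total RNA content in these CPM ratios was not tested. Low levels were not particular to the cycling clusters. At resolution 1.0 a cluster led by Edn3 and Cxcl17, not named S phase or G2/M, held 394 dexamethasone and 706 control cells. It had Apoe at 8747 and 9324.5 CPM, Pltp at 202 and 281, Abca1 at 165 and 163 and Abcg1 at 78.0 and 71.3. The S phase cluster there had 8132 and 9106.5, 191 and 288, 161 and 174, and 71.8 and 88.8 CPM for these genes.

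Border-macrophage-like cells stood above microglia-like cells for Apoe, Pltp, Abca1 and Plin2 in both libraries. The log2 ratios were 0.38 (0.37 to 0.39) and 0.25 (0.24 to 0.26) for Apoe, 0.42 (0.34 to 0.49) and 0.54 (0.49 to 0.58) for Pltp, 0.37 (0.28 to 0.45) and 0.47 (0.40 to 0.53) for Abca1, and 0.30 (0.15 to 0.44) and 0.30 (0.19 to 0.41) for Plin2. Abcg1 gave -0.04 (-0.19 to 0.11) and 0.13 (0.02 to 0.23), and Soat1 0.06 (-0.24 to 0.35) and 0.42 (0.18 to 0.65). None of the 6 passed a log2 ratio of 1 in both libraries, beside 4.74% of 9451 genes, and 4 of 6 had intervals above 0 in both, beside 9.04%. Against Spp1-high cells alone the border-macrophage-like cells were lower for Soat1, at -0.75 (-1.08 to -0.44) and -0.40 (-0.66 to -0.14), and close for Pltp, at -0.04 (-0.13 to 0.05) and 0.06 (0.01 to 0.11).

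The 2 border clusters differed in their efflux genes. In the control library, where cluster 8 held 149 cells, its log2 ratio over microglia-like cells was -0.52 (-0.55 to -0.50) for Apoe, -0.91 (-1.27 to -0.57) for Abcg1, 0.37 (0.26 to 0.47) for Pltp and 1.26 (0.83 to 1.66) for Soat1. Cluster 6 of that library gave 0.36 for Apoe, 0.26 for Abcg1, 0.57 for Pltp and 0.18 (-0.10 to 0.45) for Soat1. In the control library Apoe and Abcg1 thus lay on opposite sides of the microglia-like level in the border clusters. With dexamethasone, where cluster 8 held 13 cells, Apoe gave 0.40 in cluster 6 and -0.59 in cluster 8, and Pltp 0.42 and 0.45, but Abcg1 gave -0.03 (-0.19 to 0.12) and -0.39 (-1.52 to 0.54), both with intervals across 0.

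**Figure D3:**
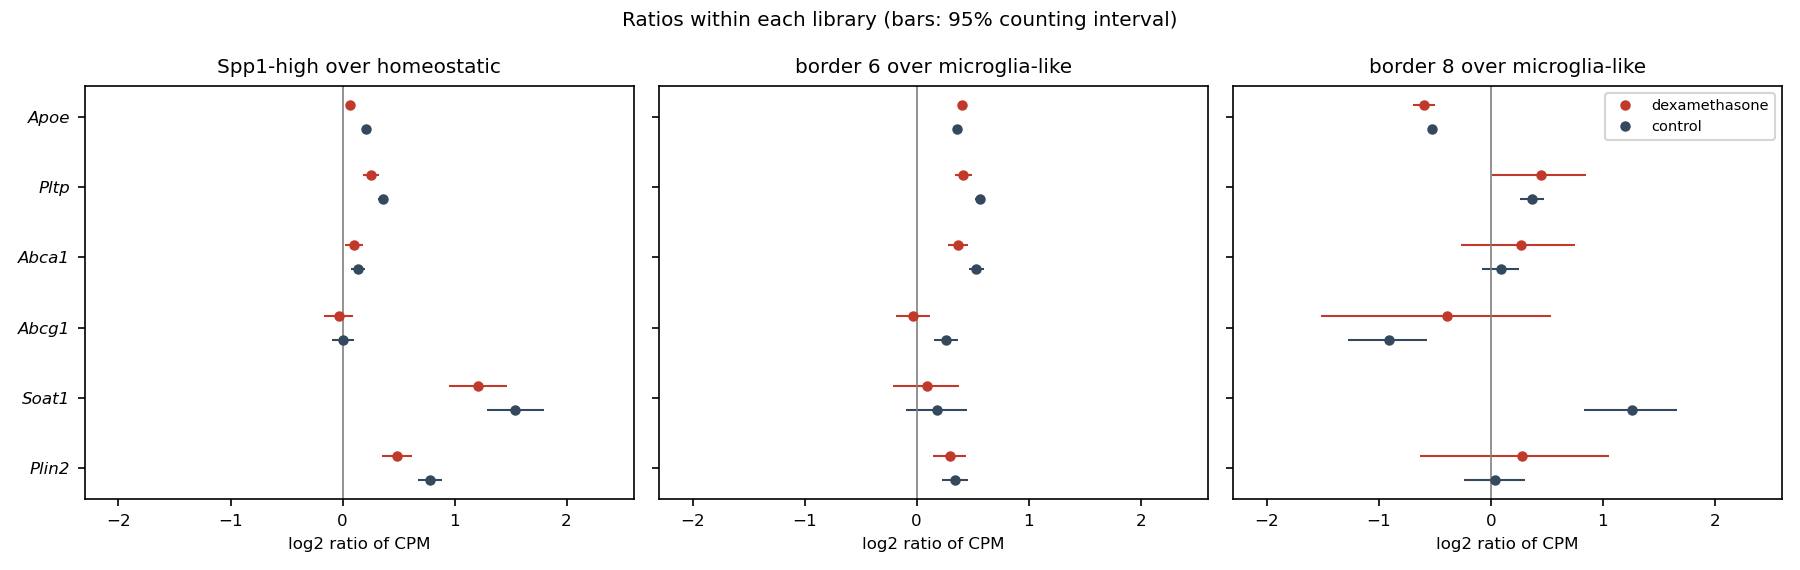
Log2 ratio of CPM within each library (red dexamethasone, blue control, bars for the 95% counting interval) for Spp1-high over homeostatic cells and for border clusters 6 and 8 over microglia-like cells, without Nr1h3 for its few UMIs and without Soat1 of the dexamethasone cluster 8, which had 1 UMI. Soat1 is the only gene past 1 in both libraries between the states, and Apoe lies above 0 in border cluster 6 (0.40 and 0.36) and below 0 in border cluster 8 (-0.59 and -0.52).

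Apoe, Pltp and Abca1 were found in cells of other types at levels close to those of the microglia markers. Neuron-like cells held the summed microglia markers at 16.5% (16.0 to 17.0) of the microglia-like level with dexamethasone and 36.3% (35.9 to 36.8) in the control, and their median UMIs were 5515 and 2468. Apoe stood at 19.5% and 35.9% of its own microglia-like level there, Pltp at 19.3% and 36.7% and Abca1 at 16.4% and 36.9%. These shares lie inside the range of the 16 single markers with at least 100 UMIs, 10.2% to 32.4% with dexamethasone and 28.6% to 43.2% in the control. No expression by neuron-like cells is therefore read from the levels of Apoe, Pltp and Abca1, and the source of these transcripts was not tested. With dexamethasone the Apoe share was above the interval of the summed markers. In control neuron-like cells thinned to 4200 UMIs, Apoe had a median of 5 UMIs and a 90th percentile of 56.

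Abcg1 and Plin2 stood above the summed marker list in neuron-like cells. Abcg1 was at 39.4% (26.1 to 57.0) and 46.2% (37.8 to 56.0) of its microglia-like level, and Plin2 at 44.7% (29.9 to 64.3) and 58.0% (47.8 to 69.8). Their lower bounds were above the marker list in both libraries, but 3 of the 4 reached into the range of the single markers. Soat1 rested on 7 and 16 UMIs and gave no usable share. In erythroid-like cells the marker list stood at 7.53% and 5.91%, and Apoe at 8.42% and 6.68%, Pltp at 9.20% and 7.61% and Plin2 at 12.1% and 7.35%. All of these are within the marker range of 4.88% to 12.8% with dexamethasone and 3.46% to 10.7% in the control.

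**Figure D4:**
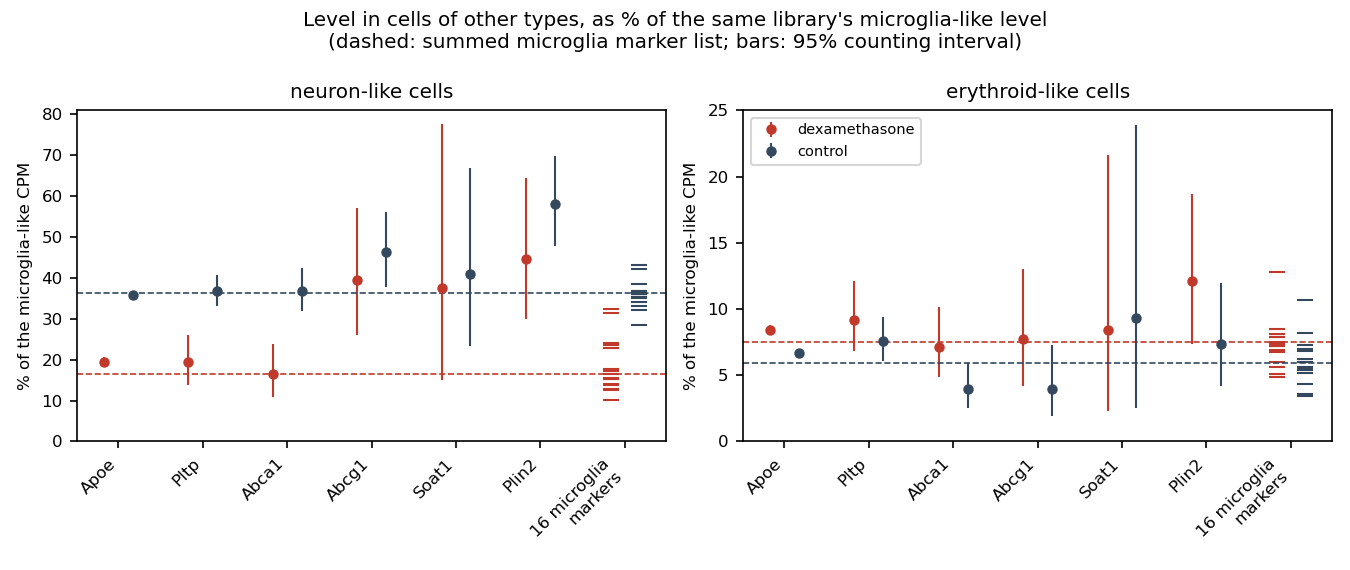
Level of 6 genes in neuron-like and erythroid-like cells as a percentage of the same library's microglia-like level, with 95% counting intervals; dashed lines give the summed microglia marker list and short ticks the 16 single markers. Apoe, Pltp and Abca1 sit near the list in neuron-like cells (16.4% to 19.5% with dexamethasone), and Plin2 (44.7% and 58.0%) and Abcg1 lie above it.

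Splitting the cells further showed where the efflux genes were highest among microglia-like cells. At the finer resolution of 1.0, 10 microglia-like clusters had at least 50 cells of each library, and cluster 3 (318 dexamethasone and 438 control cells), led by Pik3ip1, Mt1, Gpnmb and Hmox1, had the highest Pltp (492 and 818 CPM), Abca1 (440.2 and 454 CPM), Abcg1 (188 and 159 CPM) and Plin2 (141 and 130 CPM) of the 10 in both libraries. This cluster was singled out after its values were seen, with Abca1 itself among its leading genes, so its values are a description. A further microglia-like cluster of 1 dexamethasone and 16 control cells was left out for its size, and its control Plin2 level was 143 CPM (74.1 to 250.5) on 12 UMIs. None of the 7 genes was among those used to cluster.

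In finer cluster 3 the log2 ratios over the other microglia-like cells were 1.17 (1.08 to 1.25) and 1.20 (1.12 to 1.28) for Abca1, 1.21 and 0.85 for Abcg1 and 0.93 and 1.13 for Pltp. Apoe gave 0.55 and 0.71, Plin2 0.84 and 0.76 and Soat1 0.59 and 0.39. All 6 genes with enough UMIs had intervals above 0 in both libraries (background 7.05%), and Abca1 alone passed 1 in both (background 0.249%). Spp1 was lower in this cluster than in other microglia-like cells, at -1.30 and -0.48. Of its cells 45.3% and 62.6% came from the Spp1-high cluster, 29.9% and 28.8% from the homeostatic one and 23.6% and 3.20% from the unnamed one. Among 34 tested genes of the wider lipid pathway, 8 had intervals above 0 in both libraries, among them Trem2, Npc2 and Lipa. They included 4 of the 6 other liver X receptor targets on the list, Mylip, Srebf1, Scd2 and Smpdl3a, and not Lpcat3 (0.02 and 0.23) or Mertk (0.10 and 0.08). Lpl (-0.45 and -1.06) and Cideb (-0.29 and -0.57) had intervals below 0 in both.

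Apoe was highest in another finer cluster, number 0, led by the immediate early genes Egr1, Fos and Jun, at 15199 and 18812 CPM. Cluster 3 was next at 14704 and 18416 CPM. Cluster 0 was uneven between libraries, with 444 dexamethasone cells (10.6% of that library) and 154 control cells (1.91%). A G2/M cluster had the lowest Apoe, Pltp, Abca1 and Abcg1 levels of the 10 in both libraries. From the lowest to the highest cluster the level differed 2.07-fold and 2.53-fold for Apoe, 3.55-fold and 4.29-fold for Pltp and 4.16-fold and 4.12-fold for Abca1. Soat1 was highest in a Spp1-high cluster, at 43.5 and 28.7 CPM, and not in cluster 3.

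**Figure D5:**
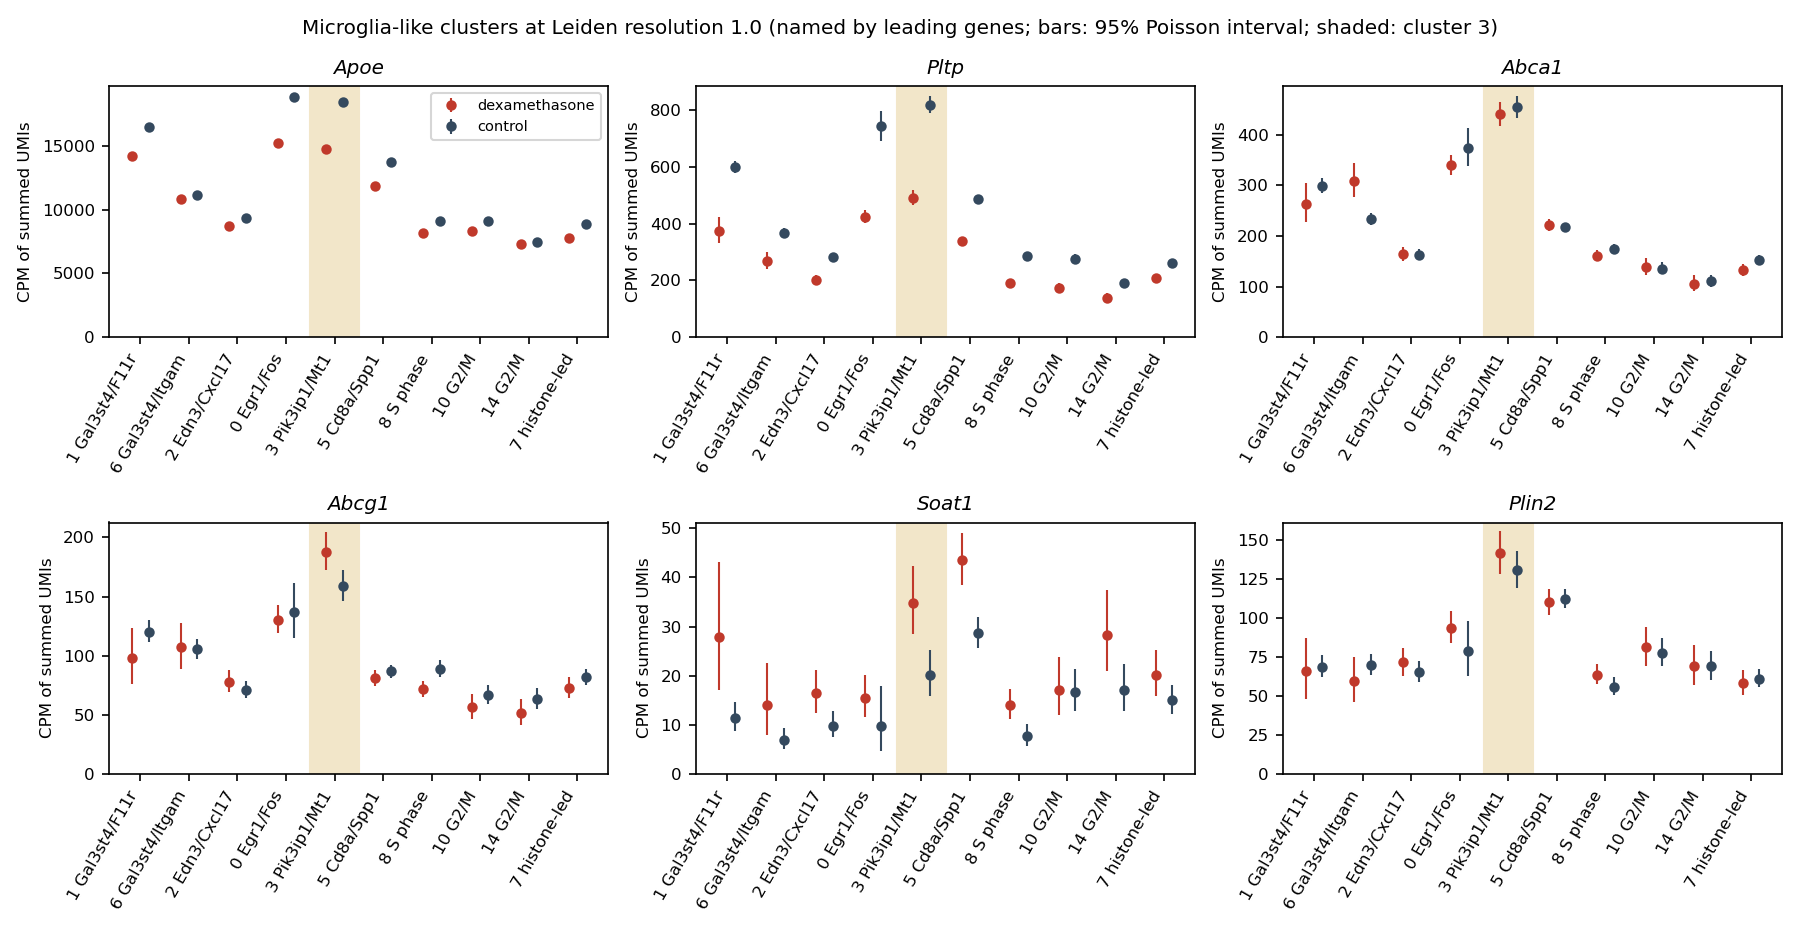
Level of the genes in CPM in each of the 10 finer microglia-like clusters with at least 50 cells of each library, dexamethasone in red and control in blue, with 95% counting intervals. Cluster 3 is highest for Pltp, Abca1, Abcg1 and Plin2 in both libraries, cluster 0 for Apoe and cluster 5 for Soat1.

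Across 21 profiles, each a cluster in a library with at least 50 cells, Apoe, Pltp, Abca1 and Abcg1 had similar patterns. The profiles share libraries and differ in depth and microglial content, so the correlations are descriptions. Pearson's r of log2(CPM + 10) was 0.98 between Apoe and Abca1, 0.95 between Apoe and Pltp and 0.93 between Abca1 and Abcg1, and 0.94, 0.95 and 0.94 over the 10 microglia-like profiles. Soat1 was less like Apoe, at 0.64 over all and 0.31 over the microglia-like profiles, and was closer to Plin2 within microglia-like profiles, at 0.80. Nr1h3 had r of 0.12 with Apoe, with few UMIs in most profiles.

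The genes most like each of these were sought among 7294 genes with at least 1000 UMIs. Apoe was most like Il10rb (0.99), Glmp and Plbd2, Pltp most like Tmem37 (0.97), Fcgrt and Gas6, and Abca1 most like Fcgrt (0.97), Glmp and Man1c1. Abcg1 was most like Tmbim4 (0.97), Man1c1 and P4ha1, and Plin2 most like Mcee (0.96), Mospd2 and Gabarap. Soat1 was most like Foxn2 (0.89), Ece1 and Prkcd, and Nr1h3 was most like Emp3 (0.93), Crip1 and Lst1. Over the 10 microglia-like profiles the r of Il10rb with Apoe was 0.67 and that of Glmp was 0.97. The r of Nr1h3 over these 10 profiles was -0.13 with Emp3, 0.35 with Crip1 and 0.08 with Lst1.

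The wider pathway list held 69 further genes, of which 66 were in the gene table. Between libraries 41 were tested in microglia-like cells, and 2 passed the 0.5 threshold, both higher with dexamethasone, a share no larger than the 6.65% of all genes given above. These were Cideb, a lipid droplet protein, at 74.0 and 25.3 CPM (log2 ratio 1.55, interval 1.45 to 1.64), and Msr1, a scavenger receptor for modified lipoproteins, at 14.7 and 9.20 CPM (0.68, interval 0.49 to 0.86). None of the 6 other liver X receptor targets (Mylip, Lpcat3, Srebf1, Scd2, Smpdl3a and Mertk) passed it, with ratios from -0.24 to 0.08. The median of the list was -0.05.

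Between the states 34 pathway genes were tested. Lpl, a lipoprotein lipase and one of the markers used for the state, was higher in Spp1-high than in homeostatic cells, at 3.75 and 3.20. Msr1 was lower, at -2.07 and -1.24, and both passed a log2 ratio of 1 in both libraries, as did 2.83% of all genes. Of the 6 other liver X receptor targets, 3 had intervals above 0 in both libraries (Srebf1, Scd2 and Smpdl3a, the last at 0.86 and 0.97) and 3 below 0 (Mylip, Lpcat3 and Mertk), beside 15.4% and 25.8% of all genes. These targets had no single direction between the states.

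In border-macrophage-like over microglia-like cells, 37 pathway genes were tested and 3 passed a log2 ratio of 1, each higher in the border cells, beside 4.74% of all genes in either direction and 1.35% higher. They were Vldlr, a lipoprotein receptor, at 3.28 and 3.29, Msr1 at 2.67 and 3.04, and Smpdl3a, a phosphodiesterase, at 1.08 and 1.24. No pathway gene was lower by that much in both libraries.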

How the data were processed

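The authors deposited raw counts of UMIs per gene and barcode for 1 dexamethasone library (4328 barcodes, 42611920 UMIs) and 1 control library (8342 barcodes, 69940778 UMIs), made with Cell Ranger 7.0.0 on Rnor_6.0 per the submitters' processing notes. The 7 genes, the marker and pathway lists and the comparisons were chosen with earlier results of these data known.

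Kept cells had at least 200 genes and at most 20% mitochondrial UMIs. Scrublet called 1 dexamethasone and 0 control cells, too few to have worked, so doublets remain. Both libraries were clustered together (scanpy 1.11.5, python 3.11.15, scikit-learn 1.9.0, igraph 0.11.9) on 2000 variable genes without the described genes, none of which would have been among them, with 30 components, 15 neighbours and Leiden resolution 0.5. A class other than microglia was given where its markers took at least 2 places among a cluster's 25 leading genes (at least 50 CPM, in at least 25% of cells). The remaining clusters were microglia-like if no fewer than 10 microglia markers stood at 0.6 or more of the median over these clusters, and otherwise unnamed. A cluster's leading genes are those of highest fold over the other cells.

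Counts were summed per class and library and scaled to CPM (numpy 2.4.6, scipy 1.17.1). Levels have exact Poisson intervals, ratios exact conditional binomial ones and shares Clopper-Pearson ones, all at the 95% level. With 1 library per group no test was made. A gene entered the counts and medians of genes when the cells compared held at least 100 of its UMIs, in each library for comparisons within libraries. Some ratios on fewer UMIs are given beside their UMIs. Thresholds were 0.5 between libraries and 1 between classes on the log2 scale. All found genes are described, and pathway genes are named where past a threshold, with finer cluster 3 and the liver X receptor targets named after their values were seen. For each gene the 3 most similar genes are named. A share at 0 was bounded with 3 counts. Counts for 10519 genes of the library comparison were also simulated from a Poisson distribution. The interval covered the simulated ratio of 95.2% of 10319 genes without a change. It covered that of 96.0% of 100 genes at 0.5 and 95.0% of 100 at 1. The intervals assume this same distribution, so the simulation checks their computation and not their fit to these data. In thinned microglia-like cells the variance of Apoe over its mean was 22.2 with dexamethasone and 23.5 in the control. Apoc1 and 3 pathway genes (Arl4c, Cd36 and Cetp) were not found by symbol, and their counts were not analysed here. No annotation of Rnor_6.0 was used, so gene coordinates are not given. The values of 1 pathway gene are not reported here.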

Additional observations from a re-analysis of the deposited data

Results flagged for a closer look

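Apoe, Abca1 and Abcg1 had log2 ratios of dexamethasone over control that pointed in opposite directions in different cell classes, each with a counting interval on one side of 0. With 1 library per group these differences between classes were not tested. Apoe was lower with dexamethasone in homeostatic (-0.080), Spp1-high (-0.22), S phase (-0.20), G2/M (-0.10) and histone-led (-0.19) microglia-like cells, in border-macrophage-like cells (-0.039) and in neuron-like cells (-1.05). It was higher in unnamed (0.61) and erythroid-like cells (0.16). In erythroid-like cells thinned to 4200 UMIs, however, Apoe averaged 2.94 UMIs with dexamethasone and 2.95 in the control. It was found in 24.8% and 51.5% of those thinned cells. In neutrophil-and-monocyte-like cells, of which the dexamethasone library held 91, summed Apoe (0.41, interval 0.35 to 0.48) and Abca1 (0.73, interval 0.21 to 1.27) were also higher with dexamethasone. Apoe was however found in 72.5% of these dexamethasone and 98.2% of these control cells. After thinning, Apoe averaged 11.6 and 8.91 UMIs with medians of 1 and 2, and Abca1 averaged 0.153 and 0.178. At resolution 1.0 this class had Apoe at 4739 and 4993 CPM and Abca1 at 95.1 and 78.0 CPM, so the Apoe direction depended on the clustering. The neuron-like and erythroid-like Apoe levels lie within the marker ranges given above. The microglia markers in neuron-like cells summed to 5161 CPM with dexamethasone and 9306 CPM in the control.

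Abca1 was higher with dexamethasone in homeostatic (0.13), Spp1-high (0.085), unnamed (0.43) and erythroid-like cells (0.88, on 31 and 23 UMIs) and lower in histone-led (-0.19) and neuron-like cells (-1.14). Abcg1 was higher in homeostatic (0.11) and unnamed cells (0.96, on 96 and 23 UMIs) and lower in S phase (-0.28), G2/M (-0.29) and border-macrophage-like cells (-0.19). The homeostatic directions of Abca1 and Abcg1 were not the same in both finer homeostatic clusters, as given above. The unnamed cells had medians of 5167 and 1395 UMIs in the libraries, and the part of this depth gap in their ratios was not tested.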

How the results depend on the processing

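Each library is the only one of its group, so no library could be left out, and no values here speak to the spread between embryos. No paired analysis was possible because each group has 1 library. Of the 7 genes, 2 passed 0.5 between libraries in microglia-like cells. The count was 1 with thinned cells, where Pltp was at -0.49. It was 1 in the homeostatic cluster alone, 1 in the G2/M cluster alone and 0 in the histone-led cluster alone. Over 16 alternatives Pltp ranged from -0.63 to -0.33 and passed in 13, and Soat1 ranged from 0.44 to 0.92 and passed in 14. These alternatives, and the 12 and 13 below, include some that could not move these ratios. Keeping the described genes among the variable genes gave the same cell numbers as the main clustering. A limit of 20 UMIs changes which genes are compared and not their ratios. The Abca1 library ratio had the reported sign in 10 of 16. Between the states the count of 1 became 0 with thinned cells, where Soat1 was at 0.87 with dexamethasone, and 0 with the marker gate, where 1779 and 2008 of 8412 thinned cells lay within 1 UMI of the limits of the gate. Over 12 alternatives Soat1 ranged from 0.57 to 1.34 with dexamethasone and from 1.11 to 1.82 in the control. The count for border-macrophage-like cells was 0 under each of the 13 alternatives run, 2 of which, the border clusters taken singly, were chosen after seeing the data. Leaving the pathway genes out of the clustering turned the sign of Apoe, Pltp and Abca1 between the states, and stricter filters or resolution 1.0 also turned that of Abca1, as given above. Of 12 alternatives in each library, Abca1 had the reported sign in 9, Pltp in 11 and Apoe in 10 with dexamethasone and 11 in the control. The cause of these shifts was not tested. Depth limits Nr1h3 most, with 76 and 124 UMIs in microglia-like cells.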
